A study of Oryzias latipes with 18 samples.

Results

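Of the 13 protein-coding genes of the mitochondrial genome, the mRNAs of 10 were followed in the testis of medaka (Oryzias latipes). The members are the 10 rows of the deposited table whose gene name is ND1, ND2, ND4, ND5, ND6, COX1, COX2, COX3, CYTB or ATP6 in upper case, out of 22941 genes in the table. They were chosen by name, with earlier results of these data known. The other mitochondrial protein genes of the table, ND3, ND4L and ATP8, have rows of their own and are not members.

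RNA-seq was made from testes of 2 lineages of fish, with 3 labelled biological replicates in each of 6 groups. Fish of the BPA lineage descend, over 4 generations, from embryos kept in 10 µg/L bisphenol A, and themselves received perfluorooctane sulfonate (PFOS) at 0, 0.002 or 0.02 mg/L for 21 days. Fish of the control lineage, whose ancestors met no bisphenol A, received the same 3 PFOS concentrations over the same time. The labels name no mutation or transgene in either lineage, and nothing used here gives age, strain or how many fish went into a library.

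Mitochondria carry their own small circular genome, which is copied and transcribed apart from the chromosomes of the nucleus. Its protein genes encode core subunits of the respiratory chain: ND subunits of complex I, cytochrome b of complex III, COX subunits of complex IV and ATP synthase subunits of complex V. Both strands are transcribed as long precursors that are cut into shorter RNAs. In vertebrates ND6 is the protein gene read from the opposite strand to all others. In the testis these mRNAs come from germ cells and somatic cells alike, and sperm carry mitochondria in their midpiece.

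Complex I members were ND1 (ENSORLG00000021753), ND2 (ENSORLG00000021757), ND4 (ENSORLG00000021775), ND5 (ENSORLG00000021779) and ND6 (ENSORLG00000021780). CYTB (ENSORLG00000021782) was the complex III member. COX1 (ENSORLG00000021763), COX2 (ENSORLG00000021766) and COX3 (ENSORLG00000021770) were the complex IV members, and ATP6 (ENSORLG00000021769) belonged to complex V. All 10 matched genes on the mitochondrial chromosome of the RefSeq medaka annotation by symbol. In that annotation the ends of ND5 and ND6 overlap by 5 bases, ND4L overlaps ND4 by 7 bases and ATP8 overlaps ATP6 by 10 bases. No source used here states the authors' strand setting, so reads of ND6 and reads of antisense RNA over it cannot be told apart.

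Values are given as normalized reads, which the authors obtained by scaling each library with 1 size factor. The 18 libraries held 23.7 to 47.7 M recovered reads and 20250 to 22384 genes above 0. The library labelled control lineage, PFOS 0.002 mg/L, replicate 2 stood apart: its correlations with the other libraries of its group were 0.791 and 0.797, against 0.926 to 0.970 for the other replicate pairs. Its 10 measured oocyte and ovary markers summed to 774426 normalized reads, against 332 to 6933 in the other 17 libraries, and the egg envelope gene zpax1 stood at 210333 against at most 2639. Its male-determining gene dmy stood at 489 normalized reads, against 1465 to 4469 in the others. It is given apart throughout, and results without it rest on 17 libraries, with 2 in its group. In those 17 the germ cell gene ddx4 ran from 21983 to 49655 normalized reads and the Sertoli cell gene gsdf from 15527 to 39868.

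The mRNAs of cytochrome c oxidase were the most abundant members. On the scale of normalized reads per kilobase of RefSeq gene length, means over 17 libraries were 168798 for COX2, 154719 for COX3 and 152963 for COX1. CYTB followed at 95706 and ATP6 at 66505 normalized reads per kilobase. The complex I members were lowest, with ND4 at 22901, ND2 at 16709, ND1 at 13031, ND6 at 10649 and ND5 at 7115 normalized reads per kilobase. The level per kilobase of COX2 was thus 23.7 times that of ND5.

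Most neighbours in this order kept their places library by library. COX1 was above CYTB, ATP6 above ND4, ND4 above ND2 and ND2 above ND1 in 17 of 17 libraries. CYTB was above ATP6 in 15, ND1 above ND6 in 16 and ND6 above ND5 in 15 of 17. The 3 COX mRNAs were not ordered among themselves: COX2 was above COX3 in 12 libraries, and COX3 above COX1 in 8. Relative to its mean, ND6 varied most, with a coefficient of variation of 50.2% over the 17 libraries, and ND4 least with 33.7%.

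**Figure D1:**
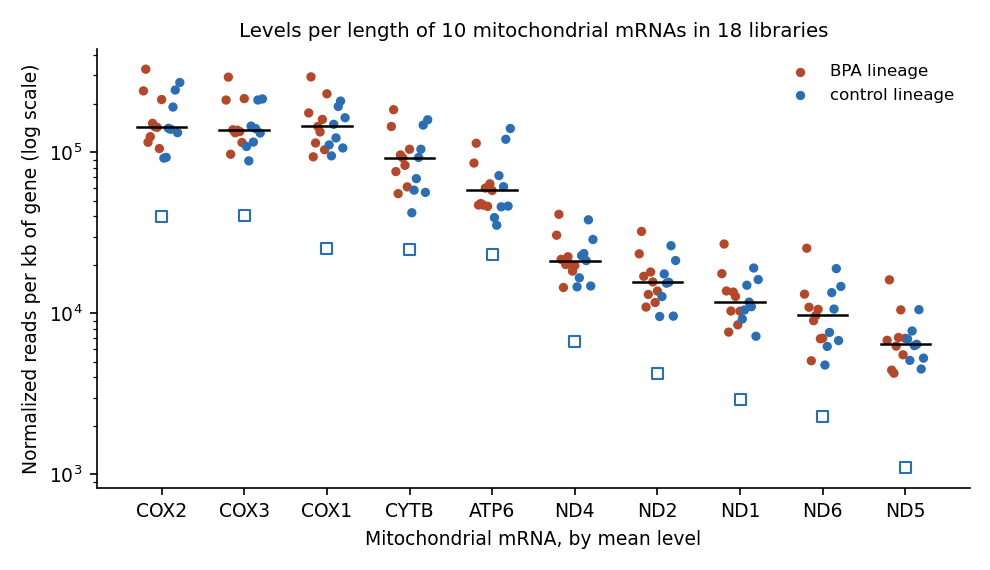
Levels of the 10 mitochondrial mRNAs in normalized reads per kilobase of gene on a log axis, with one point per library, BPA lineage left and control lineage right within each gene, and the median of 17 libraries as a bar. Open squares mark the library set apart, which lies below all others for every member; COX2, COX3 and COX1 have means from 152963 to 168798 and ND5 a mean of 7115 normalized reads per kilobase.

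Together the 10 members took 3.17% ± 0.990 of all reads (SD, n = 17 libraries), with a range of 1.94 to 5.72%. Without PFOS the share was 4.17, 5.72 and 2.40% in the 3 libraries of the BPA lineage, against 2.17, 1.94 and 3.24% in the 3 of the control lineage. The lowest BPA lineage library thus lay within the range of the control lineage. Means were 4.10% ± 1.66 in the BPA lineage and 2.45% ± 0.697 in the control lineage (SD, n = 3 each). The difference of 1.65 percentage points was 0.836 without replicate 2 and 2.50 without replicate 3 of the unexposed BPA lineage.

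For the BPA lineage the summed share was 2.40, 3.08 and 2.98% at 0.002 mg/L PFOS, with a mean of 2.82% ± 0.369 (SD, n = 3). At 0.02 mg/L it was 3.09, 2.40 and 3.67%, with a mean of 3.05% ± 0.638 (SD, n = 3). Both PFOS groups averaged less than the unexposed fish of their lineage and overlapped with them. The differences from the unexposed fish were -1.28 percentage points at 0.002 mg/L and -1.04 at 0.02 mg/L. They were -0.465 and -0.231 without replicate 2 of the unexposed fish, and -2.13 and -1.89 without replicate 3. In the control lineage the share was 2.54 and 3.23% at 0.002 mg/L in the libraries kept, 0.440% in the library set apart, and 4.47, 2.38 and 4.09% at 0.02 mg/L. The control lineage mean at 0.02 mg/L was 3.65% ± 1.11 (SD, n = 3), above the unexposed mean and again with overlap. The difference between these means was 0.787 percentage points without replicate 1 and 1.83 without replicate 2 at 0.02 mg/L. No test is given for the summed share, since it is a score over members chosen with results of these data known.

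**Figure D2:**
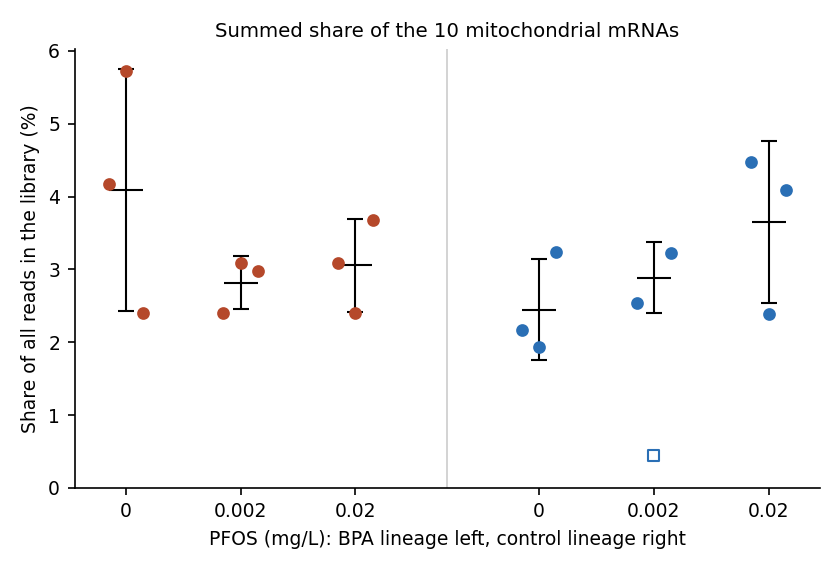
Summed share of the 10 mitochondrial mRNAs in all reads of a library, in percent, by PFOS concentration, with the BPA lineage left and the control lineage right. Points are libraries, black bars are means ± SD without the library set apart (open square, 0.440%); without PFOS the BPA lineage averages 4.10% and the control lineage 2.45%, and at 0.02 mg/L 3.05% and 3.65%.

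Without PFOS, ND6 was higher in the BPA lineage than in the control lineage. It stood at 6876, 13251 and 5702 normalized reads in the BPA lineage, against 2495, 3256 and 3975 in the control lineage. Every BPA lineage library was above every control lineage library, and replicate 2 of the BPA lineage was the highest of all 17. The log2 difference was 1.34 ± 0.37 (SE; limma on log2(normalized reads + 1), adjusted p = 0.0339 over 18725 genes). ND6 encodes a membrane subunit of complex I.

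ND6 was the only one of the 10 members to pass in this comparison. Of all genes tested 10.4% passed, 4.37% upward and 6.06% downward, so the count of members is near the share of all genes. An unadjusted p under 0.05 was reached by 6 members, and by 28.8% of all genes. The point estimates of all 10 were positive, between 0.28 and 1.34 with a median of 0.75, against a median of 0.07 over all genes. That of ND5 turned to -0.24 without replicate 2 of the BPA lineage.

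CYTB, which encodes cytochrome b, had the second largest difference. It stood at 165084, 209919 and 86654 normalized reads in the BPA lineage, against 48102, 66442 and 78327 in the control lineage. These groups did not overlap either, but the log2 difference of 1.19 ± 0.38 missed the threshold (SE; limma, adjusted p = 0.0565). In edgeR and DESeq2 on recovered reads it passed (adjusted p = 0.0491 and 0.0118). CYTB and ND6 were the members without overlap here, both higher. Of all genes tested, 33.6% had groups without overlap, 15.6% with the BPA lineage lower.

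COX2, a catalytic core subunit of complex IV, stood at 166271, 226803 and 79784 normalized reads in the BPA lineage, against 63600, 64278 and 97390 in the control lineage. The groups overlapped, since the lowest BPA lineage library lay between control lineage libraries. Its log2 difference was 0.97 ± 0.36 (limma, adjusted p = 0.0848). For ND2 it was 0.86 (adjusted p = 0.0969), for ND4 0.77, for ATP6 0.74, for ND1 0.73 and for COX3 0.70, none of which passed.

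COX1 and ND5 had the smallest differences. COX1 stood at 273427, 457743 and 146014 normalized reads in the BPA lineage, against 173054, 148027 and 232395 in the control lineage, a log2 difference of 0.54 ± 0.37. ND5, another membrane subunit of complex I, stood at 12514, 29712 and 8171 normalized reads in the BPA lineage, against 12751, 9394 and 14303 in the control lineage, a log2 difference of 0.28 ± 0.40. In both genes replicate 2 of the BPA lineage was the highest library and replicate 3 the lowest of all 6.

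The ND6 call without PFOS rests on single libraries. Its adjusted p was 0.137, 0.0613 and 0.0510 without replicate 1, 2 or 3 of the unexposed control lineage, and 0.0709 and 0.179 without replicate 1 or 2 of the unexposed BPA lineage, so that no member passed in any of these fits. It was 0.235 with all 18 libraries in the fit, with the log2 difference unchanged at 1.34. Leaving out replicate 3 of the unexposed BPA lineage made 5 members pass, and leaving out replicate 2 of the control lineage at 0.02 mg/L made 4 pass. That last library is in neither group compared, and without it the log2 difference of ND6 stayed at 1.34. The shares of all genes passing in these fits are not given here.

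Some sums of tissue and cell type markers differed between these groups, and their part in the results was not tested. The 16 measured markers of pancreas, gut and kidney summed to 914 to 1473 normalized reads in the unexposed BPA lineage, against 4634 to 41290 in the unexposed control lineage, and to 395 to 1901 in the other 11 libraries. The 9 measured muscle and connective tissue markers summed to 20997 to 26380 in the unexposed BPA lineage, against 14819 to 23191 in the unexposed control lineage. The 11 measured spermatid and flagellum markers summed to 40611 to 42694 in the BPA lineage, against 44086 to 58908 in the control lineage. The 10 oocyte and ovary markers summed to 566 to 837 in the BPA lineage, against 332 to 432 in the control lineage, and the 2 measured Leydig cell markers to 1091 to 2780 against 934 to 1162. Rows named 5S_rRNA, 24 in the table, took 0.157, 0.504 and 0.186% of reads in the unexposed BPA lineage, against 0.0377, 0.0889 and 0.105% in the unexposed control lineage. Of these 6 measures, pancreas, gut and kidney, spermatid and flagellum, oocyte and ovary and 5S_rRNA did not overlap between the groups. Marker sums of spermatogonia, meiotic prophase, Sertoli cells and blood overlapped between them, as did those of muscle and connective tissue and Leydig cells. None of these lists' rows was at 0 in all libraries of a group. In bulk tissue, fewer cells of a type and less RNA per cell cannot be told apart.

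**Figure D3:**
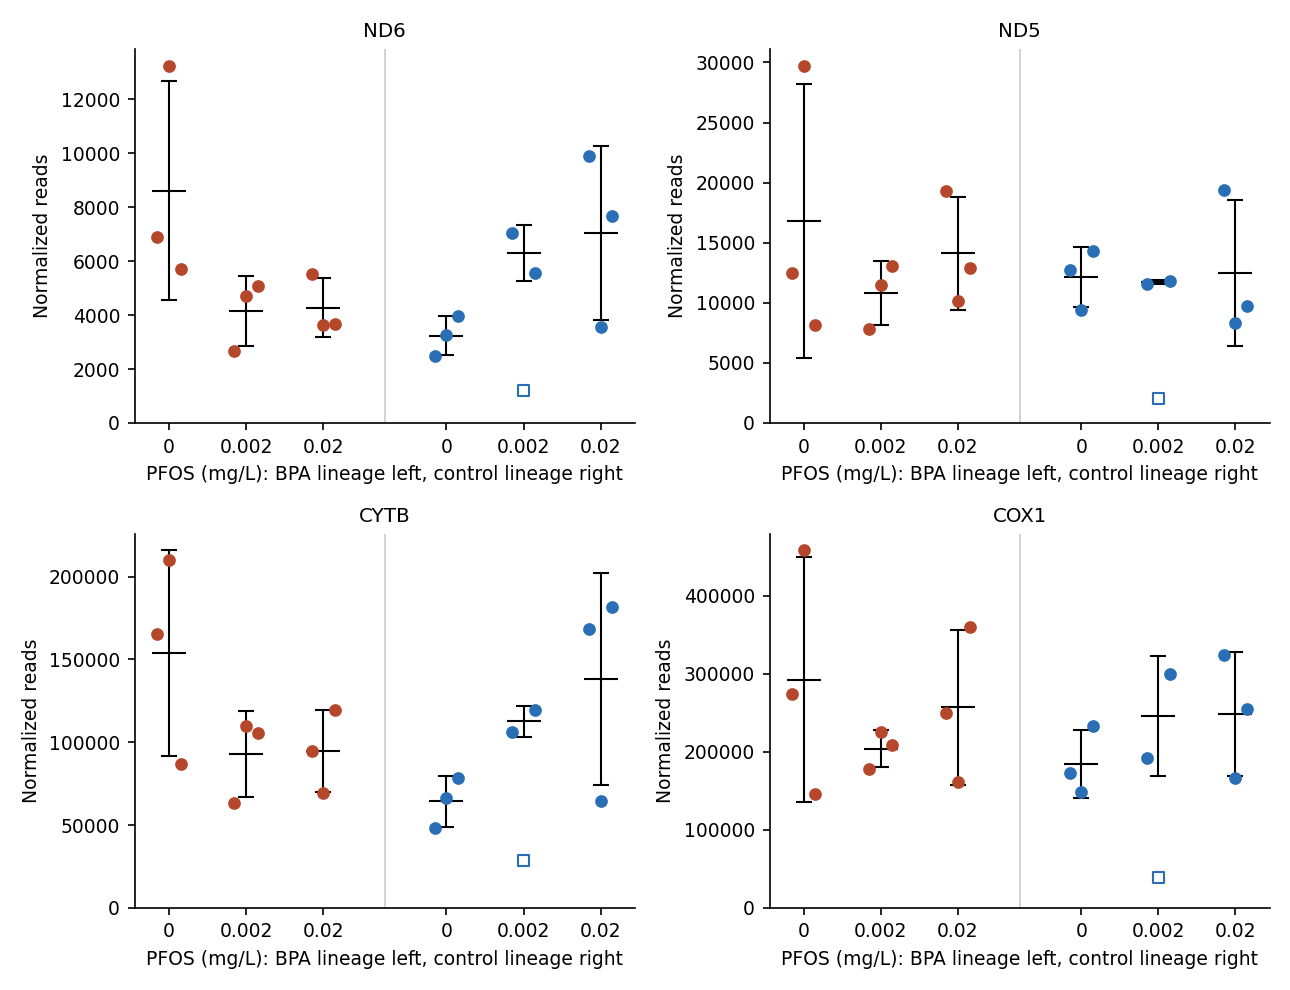
Normalized reads of ND6, ND5, CYTB and COX1 by PFOS concentration in mg/L, with the BPA lineage left and the control lineage right in each panel. Points are libraries, black bars are means ± SD without the library set apart (open square); ND6 averages 8609 in unexposed BPA lineage fish and 3242 in unexposed control lineage fish, while ND5 overlaps between them.

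In the control lineage no member passed at either PFOS concentration. At 0.02 mg/L, ND6 stood at 9905, 3539 and 7675 normalized reads, against 2495, 3256 and 3975 without PFOS. Replicate 2 at 0.02 mg/L lay within the unexposed range and the other two far above it. The log2 difference of ND6 was 1.02 ± 0.37 (limma, adjusted p = 0.0777). The same replicate 2 had the highest oocyte and ovary marker sum of the 17 libraries, 6933 normalized reads, and the lowest share of 5S_rRNA rows, 0.0132% of reads.

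CYTB at 0.02 mg/L stood at 168421, 64362 and 181750 normalized reads in the control lineage, against 48102, 66442 and 78327 without PFOS. Its log2 difference was 0.99 ± 0.38, that of ATP6 was 0.99 ± 0.38 and that of COX2 was 0.95 ± 0.36 (limma, adjusted p = 0.0921, 0.0914 and 0.0821). ATP6, whose product forms part of the proton channel of ATP synthase, stood at 82294, 31671 and 96051 normalized reads at 0.02 mg/L, against 26855, 24099 and 48960 without PFOS. In CYTB and ATP6 alike, replicate 2 lay within the unexposed range.

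Of the 10 point estimates at 0.02 mg/L in the control lineage, 9 were positive, with a median of 0.61, against 0.03 over all genes. The exception was ND5 at -0.04. While none of the members passed, 12.9% of all genes tested did. Unadjusted, 4 members had p under 0.05, as had 31.7% of all genes; DESeq2 called 4 members and edgeR 0. No member's groups were without overlap, against 19.5% of all genes that were higher in this way and 17.2% that were lower. Without replicate 2 at 0.02 mg/L, 6 members passed in limma, and without replicate 3 of the unexposed BPA lineage, 1 did. The shares of all genes passing in these fits, and in DESeq2 and edgeR, are not given here.

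Marker genes moved with PFOS in the control lineage as well. The oocyte and ovary markers summed to 876, 6933 and 2299 normalized reads at 0.02 mg/L, against 332 to 432 without PFOS. The pancreas, gut and kidney markers summed to 561 to 577 at 0.02 mg/L, against 4634 to 41290 without PFOS. Neither sum overlapped between these groups, and their part in the values of the members, in this comparison and in the interactions, was not tested. In the libraries kept at 0.002 mg/L, the oocyte and ovary markers summed to 489 and 688 and the pancreas, gut and kidney markers to 902 and 395. Muscle and connective tissue markers summed to 13900 and 8769 there, against 14819 to 23191 without PFOS. None of these sums overlapped the unexposed ones, and their part was not tested either.

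At 0.002 mg/L in the control lineage, ND6 stood at 7024 and 5555 normalized reads in the libraries kept and at 1195 in the library set apart, against 2495, 3256 and 3975 without PFOS. CYTB stood at 105999 and 119193 in the libraries kept and at 28415 in the one apart, against 48102, 66442 and 78327 without PFOS. For both genes the 2 libraries kept were above all unexposed ones, which 25.4% of all genes tested showed in that direction, and the library set apart was below all of them.

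The log2 differences at 0.002 mg/L in the control lineage were 0.97 ± 0.42 for ND6 and 0.83 ± 0.43 for CYTB (limma, adjusted p = 0.152 and 0.221). No member passed, against 4.59% of all genes, and neither edgeR nor DESeq2 called any (0 each). Unadjusted, 1 member had p under 0.05, as had 26.8% of all genes. The median of the 10 was 0.30 with 17 libraries and -0.30 with all 18, in which 7 members turned from positive to negative. Between the 2 PFOS concentrations, 0 members of the control lineage had an unadjusted p under 0.05, as 4.77% of all genes did, and limma, edgeR and DESeq2 each called 0; the median log2 difference of 0.02 against 0.002 mg/L was 0.18.

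In the BPA lineage all 10 point estimates were negative at both PFOS concentrations, and none passed. ND6 stood at 2653, 4704 and 5066 normalized reads at 0.002 mg/L, against 6876, 13251 and 5702 without PFOS. At 0.02 mg/L it stood at 5530, 3632 and 3663 normalized reads. Every exposed library was thus below every unexposed one, by a narrow margin where the nearest pair stood at 5530 and 5702. The log2 differences of ND6 were -1.01 ± 0.37 at 0.002 mg/L and -0.94 ± 0.37 at 0.02 mg/L (limma, adjusted p = 0.457 and 0.196).

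ND1, a complex I subunit of the membrane arm, also did not overlap. It stood at 7463, 10089 and 13227 normalized reads at 0.002 mg/L and at 12426, 8279 and 10063 at 0.02 mg/L, against 17205, 26289 and 13434 without PFOS. Its log2 differences were -0.87 ± 0.33 and -0.85 ± 0.33 (limma, adjusted p = 0.462 and 0.190). ND2 and ND4 were without overlap at 0.02 mg/L only. CYTB had log2 differences of -0.68 and -0.64, COX2 of -0.58 and -0.50, ATP6 of -0.59 and -0.48, and COX1 of -0.38 and -0.11 at the low and the high concentration.

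The members without overlap in the BPA lineage, all lower with PFOS, were 2 of 10 at 0.002 mg/L and 4 of 10 at 0.02 mg/L, against 11.3% and 10.3% of all genes tested in that direction. The median of the 10 log2 differences was -0.63 at 0.002 mg/L and -0.57 at 0.02 mg/L, against -0.05 and -0.06 over all genes. At 0.002 mg/L 0% of all genes passed, and at 0.02 mg/L 0.411% did. Unadjusted, 4 members at 0.002 mg/L and 3 at 0.02 mg/L had p under 0.05, against 9.57% and 18.5% of all genes, while both edgeR and DESeq2 called 0 members at either. Without replicate 2 of the unexposed BPA lineage, the estimates of ND5 and COX1 turned positive at both concentrations and that of COX3 at 0.02 mg/L.

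Between the concentrations the BPA lineage had 0 members with an unadjusted p under 0.05, against 2.46% of all genes, 0 called by limma, edgeR or DESeq2, and a median log2 difference of 0.07 for 0.02 against 0.002 mg/L. The muscle and connective tissue markers summed to 12648 to 13406 normalized reads at 0.002 mg/L and 8900 to 17153 at 0.02 mg/L, against 20997 to 26380 without PFOS. At 0.02 mg/L the 7 measured meiotic prophase markers summed to 43600 to 58921 and the 8 measured spermatogonia markers to 32568 to 44597. Without PFOS these sums were 33103 to 39817 and 22591 to 29940. The spermatid and flagellum markers summed to 45968 to 51464 at 0.002 mg/L, against 40611 to 42694. Pancreas, gut and kidney markers summed to 586 to 913 at 0.02 mg/L, against 914 to 1473. None of these overlapped the unexposed sums, though for pancreas, gut and kidney the nearest pair stood at 913 and 914. Rows named 5S_rRNA took 0.0259, 0.134 and 0.107% of reads at 0.002 mg/L, against 0.157, 0.504 and 0.186% without PFOS, without overlap. At 0.02 mg/L they overlapped with the unexposed libraries. The part of these markers and rows in the lower values of the members was not tested.

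In the main fit of 17 libraries, the effect of 0.02 mg/L PFOS on ND6 differed between the lineages. The interaction, which is the log2 difference with PFOS in the BPA lineage minus that in the control lineage, was -1.96 ± 0.53 for ND6 (limma, adjusted p = 0.0230). It combines the estimate of -0.94 in the BPA lineage with that of 1.02 in the control lineage. ND6 was the only member to pass, 1 of 10, where 14.3% of all genes tested passed, 6.38% with a negative value. That count is near the share of all genes and is no result about the members as a set. Unadjusted, 7 members had p under 0.05, as had 31.2% of all genes.

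CYTB came next with an interaction of -1.64 ± 0.54 (limma, adjusted p = 0.0539), followed by ATP6 at -1.47 (adjusted p = 0.0780) and COX2 at -1.46 (adjusted p = 0.0621). All 10 estimates were negative, from -1.96 to -0.04, with a median of -1.19, against -0.10 over all genes. ND5 was the member near 0, and its estimate turned to 0.063 under TMM scaling.

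The interaction of ND6 also leaned on single libraries. Its adjusted p was 0.0639 without replicate 1 of the unexposed control lineage, 0.0622 and 0.0687 without the control lineage replicate 1 or 3 at 0.02 mg/L, 0.0675 without replicate 2 of the unexposed BPA lineage and 0.0566 without replicate 2 of the BPA lineage at 0.02 mg/L. It was 0.190 with all 18 libraries, with the estimate unchanged at -1.96. Without replicate 2 of the control lineage at 0.02 mg/L 7 members passed, as many as without replicate 3 of the unexposed BPA lineage. Without replicate 3 of the BPA lineage at 0.02 mg/L 3 passed, and without replicate 3 of the unexposed control lineage 2 did. The shares of all genes passing in these fits are not given here. Replicate 2 of the control lineage at 0.02 mg/L is the library with the oocyte and ovary marker sum of 6933 normalized reads. In the BPA lineage that sum was 596 to 2405 at 0.02 mg/L, against 566 to 837 without PFOS.

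At 0.002 mg/L the interaction of ND6 was -1.98 ± 0.56 (limma, adjusted p = 0.0689) and that of CYTB -1.51 ± 0.58 (adjusted p = 0.132). No member passed, against 0.903% of all genes. Unadjusted, 4 had p under 0.05, as had 23.4% of all genes; DESeq2 called 1, which was ND6, and edgeR 0. The median was -0.95. These interactions share the unexposed libraries with the comparison of the lineages without PFOS and with each other, so that they are not independent of it.

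With PFOS the estimates of most members were below 0 for the BPA lineage against the control lineage, and none passed. At 0.002 mg/L, ND6 stood at 2653, 4704 and 5066 normalized reads in the BPA lineage, against 7024 and 5555 in the control lineage libraries kept. These groups did not overlap, as for 18.8% of all genes in that direction, and the log2 difference was -0.65 ± 0.42 (limma, adjusted p = 0.704). At 0.02 mg/L it was -0.62 ± 0.37 (limma, adjusted p = 0.518), with values of 5530, 3632 and 3663 in the BPA lineage against 9905, 3539 and 7675 in the control lineage.

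Negative estimates were found for 9 of 10 members at 0.002 mg/L and 8 of 10 at 0.02 mg/L, with medians of -0.20 and -0.37, and none passed, against 0% and 0.0214% of all genes. The median at 0.002 mg/L was 0.45 with all 18 libraries. Averaged over the 3 concentrations the median difference between the lineages was 0.10, and ND6 was at 0.02, where 0.0481% of all genes passed. In these 3 comparisons 0 members had an unadjusted p under 0.05, where 8.42%, 12.1% and 8.62% of all genes did, and limma, edgeR and DESeq2 each called 0.

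**Figure D4:**
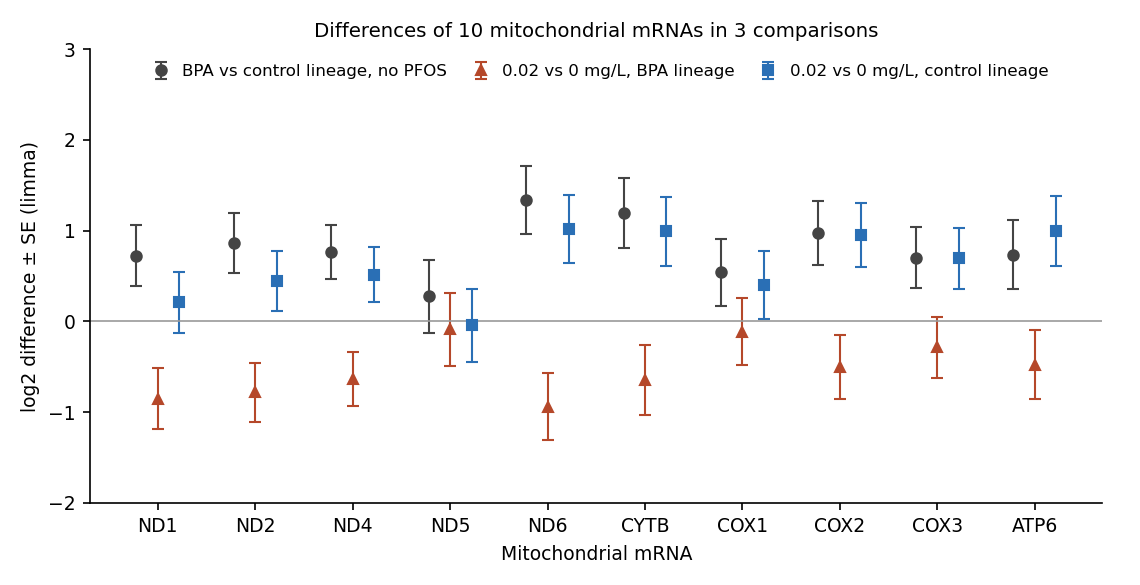
Log2 differences ± SE from limma for the 10 mitochondrial mRNAs: BPA against control lineage without PFOS (circles), and 0.02 against 0 mg/L PFOS in the BPA lineage (triangles) and in the control lineage (squares). The circles are all above 0 and the triangles all below it; ND6 lies at 1.34, -0.94 and 1.02, and the 3 comparisons share unexposed libraries.

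The make-up of the mitochondrial mRNA pool was described by each member's share of the reads summed over the members. This share does not depend on how much of the library the pool takes. It was not scaled to gene length, so longer genes weigh more in it than in the levels per kilobase. Over 17 libraries the complex IV mRNAs made up 67.1% ± 3.83 of the pool, CYTB 15.1% ± 2.34, the 5 complex I mRNAs 11.5% ± 1.88 and ATP6 6.34% ± 1.43 (SD). Without PFOS, COX1 held 30.8% ± 2.44 of the pool in the BPA lineage, against 36.1% ± 2.07 in the control lineage. COX2 held 16.9% ± 0.891 in the BPA lineage and 14.6% ± 0.463 in the control lineage, and CYTB 16.9% ± 1.26 and 12.7% ± 2.45 (SD, n = 3 each). These 3 shares did not overlap between the unexposed groups, CYTB by the smallest of margins, and the other 7 did. A pool share has no counterpart over all genes here, so this count is no result about the members.

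In the control lineage, COX2 held 17.8% ± 1.43 of the pool at 0.02 mg/L, against 14.6% ± 0.463 without PFOS, while COX1 held 30.0% ± 3.58 against 36.1% ± 2.07. ND5 held 1.50% ± 0.459 at 0.02 mg/L against 2.40% ± 0.371, and ND1 1.60% ± 0.205 against 2.20% ± 0.191, all 4 without overlap. At 0.002 mg/L, with 2 libraries, COX2 was higher and ND1, ND5, COX3 and ATP6 lower than without PFOS, again without overlap. COX3 and ATP6 did not keep that direction. Their means were 14.7% and 5.33% at 0.002 mg/L, 17.8% and 7.99% at 0.02 mg/L, and 17.5% and 6.34% without PFOS. In the BPA lineage, CYTB held 13.8% ± 0.575 at 0.02 mg/L against 16.9% ± 1.26 without PFOS, and ND2 2.19% ± 0.507 against 2.91% ± 0.602, both without overlap (SD, n = 3 each). For ND2 the nearest pair nearly touched, at 2.4907% with PFOS and 2.4912% without it. Shares within a pool shift against each other, and no test was made of them. The counts of shares without overlap stand beside no share over all genes and are no result about the members.

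The ratio of ND6 to ND5, neighbours read from opposite strands, was chosen for description after the values of both had been seen. It was 0.549, 0.446 and 0.698 in the unexposed BPA lineage, against 0.196, 0.347 and 0.278 in the unexposed control lineage. With PFOS in the BPA lineage it was 0.339, 0.408 and 0.389 at 0.002 mg/L, and at 0.02 mg/L it was 0.286, 0.357 and 0.285. In the control lineage it was 0.606 and 0.470 at 0.002 mg/L, with 0.592 in the library set apart, and 0.511, 0.426 and 0.791 at 0.02 mg/L. Both PFOS groups were below the unexposed one in the BPA lineage and above it in the control lineage, library by library. Means of the ratio of ND4 to ND5, read from the same strand, moved the same way. They were 2.98 without PFOS, 2.45 at the low and 2.02 at the high concentration in the BPA lineage, with overlap. In the control lineage they were 2.08, 2.64 and 3.09, without overlap with unexposed libraries. As a percent of the 9 other members, ND6 overlapped between unexposed lineages, at 0.743 to 1.16 (BPA) and 0.556 to 0.760 (control). A part of the strand in these shifts was not tested.

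The library set apart, lowest in each member's normalized reads, was inside the range of its own group for the ratio of ND6 to ND5. The ratio of ND6 to CYTB moved less: its means were 0.057 in the unexposed BPA lineage and 0.051 in the unexposed control lineage, so the ND6 to CYTB ratio overlapped between them. CYTB to COX1, which are read from the same strand, was 0.604, 0.459 and 0.593 in the unexposed BPA lineage, against 0.278, 0.449 and 0.337 in the unexposed control lineage. Every BPA lineage value was higher, the nearest pair being 0.459 and 0.449. This follows from the shares of the pool, where CYTB was higher and COX1 lower without overlap, and is no separate result.

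**Figure D5:**
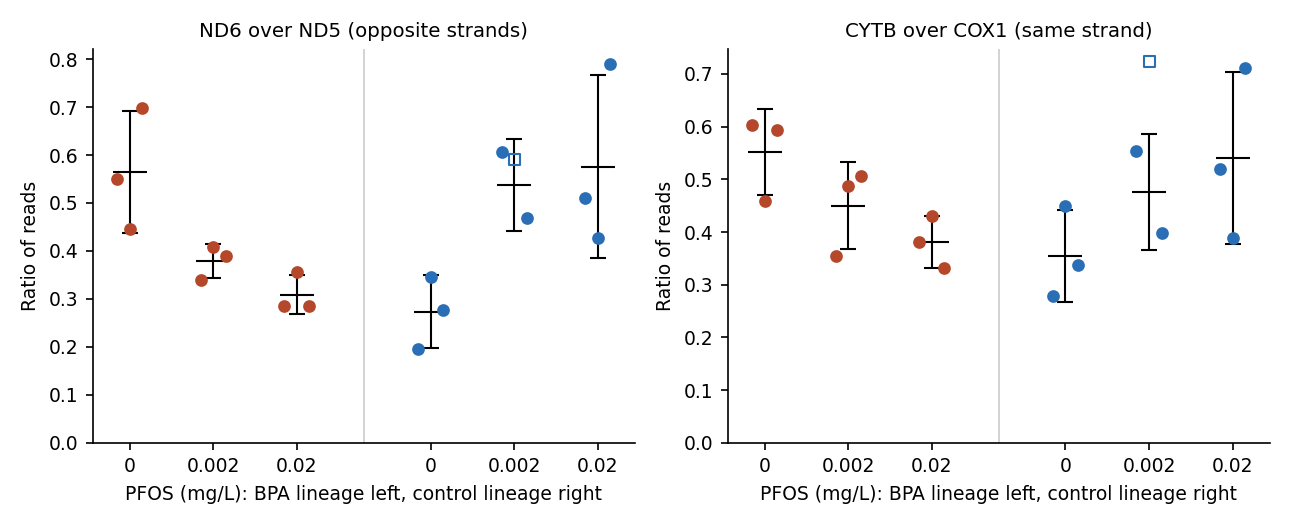
Ratios of reads per library, ND6 over ND5 on the left and CYTB over COX1 on the right, by PFOS concentration in mg/L, with the BPA lineage left and the control lineage right in each panel. Points are libraries and black bars means ± SD without the library set apart (open square); the ND6 over ND5 mean is 0.564 in unexposed BPA lineage fish and 0.273 in unexposed control lineage fish, against 0.309 and 0.576 at 0.02 mg/L.

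Across the 17 libraries the members varied together. Over the 45 pairs of members, Pearson's r of log2 values ran from 0.465 to 0.975 with a median of 0.807, highest for ND2 with ND4 and lowest for ATP6 with ND5. These points share library preparation, scaling and tissue make-up, so the correlations are a description only.

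The genes most like the summed members across the 17 libraries were searched among 11298 genes with a mean of at least 50 normalized reads. Among the most alike were capn3b (r = 0.888), brms1 (0.883), fermt3b (0.876), tmed1a (0.873), smim8 (0.867), sgsm1b (0.857) and rpl17 (0.848). The lowest correlations were those of znf207b (-0.907), itgav (-0.896), eci2 (-0.892) and lzts2b (-0.890).

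Nuclear genes that make or read the mitochondrial mRNAs were followed in lists. Without PFOS, 1 of 14 mitochondrial transcription and replication genes rose in the BPA lineage, mrpl12, a ribosomal protein known in mammals to bind the mitochondrial RNA polymerase (log2 difference 0.66 ± 0.19, limma, adjusted p = 0.0386). None of 26 RNA processing and stability genes and none of 13 biogenesis regulators passed. Of all genes tested 10.4% passed in this comparison, 4.37% upward. The smallest p among the processing genes were those of elac2, which trims the ends of mitochondrial tRNAs (0.50, adjusted p = 0.0574), and tbrg4, known in human cells to stabilise mitochondrial mRNAs (0.52, adjusted p = 0.0631). The median log2 difference was 0.31 for the transcription list, 0.31 for the processing list and 0.05 for the biogenesis list, against 0.07 over all genes.

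The nuclear subunits of the same complexes stood beside 10.4% of all genes that passed without PFOS, 4.37% upward. Among complex I subunits 1 of 33 rose in the BPA lineage, ndufa10 (0.70, adjusted p = 0.0386), and among complex IV subunits 1 of 15, cox4i2 (0.87, adjusted p = 0.0178). None of 7 complex III and none of 9 complex V subunits passed. The list medians were 0.37 for complex I, 0.19 for complex III, 0.38 for complex IV and 0.29 for complex V, against medians of 0.75 over the 10 mitochondrial members and 0.07 over all genes.

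Of 33 assembly factors, 4 rose and 3 fell in the BPA lineage without PFOS, where 4.37% of all genes rose and 6.06% fell. Those that fell were cox15 (-1.71, adjusted p = 0.0131), which makes the haem a of complex IV, cox18 (-1.52, adjusted p = 0.0104), which inserts part of COX2 into the inner membrane, and atpaf2 (-1.28, adjusted p = 0.0307), a chaperone of ATP synthase. Among those that rose, nubpl, a complex I iron-sulfur factor, had a log2 difference of 0.71 (adjusted p = 0.0342). Of 21 fusion, fission and quality control genes, prkn, the mitophagy ubiquitin ligase parkin, rose (0.96, adjusted p = 0.0156) and afg3l2, an inner membrane protease, fell (-1.13, adjusted p = 0.0165).

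In the interaction at 0.02 mg/L, where 14.3% of all genes passed, 3 of 14 transcription genes had negative values that passed: tfam, the packaging and initiation factor of mitochondrial DNA (-0.92, limma, adjusted p = 0.0416), rnaseh1, which removes RNA from hybrids with DNA (-0.92, adjusted p = 0.0327) and mrpl12 (-0.89, adjusted p = 0.0390). In the processing list 1 of 26 genes, ptcd2, known in mice for its part in the maturation of CYTB mRNA, passed (-0.89, adjusted p = 0.0496), and among 13 biogenesis regulators tfam and the deacetylase sirt3 (-1.16, adjusted p = 0.0300). Complex I had 1 positive and 3 negative calls among 33 subunits, led by ndufb9 (-1.22, adjusted p = 0.0196), complex III 1 negative call of 7, uqcrb (-1.26, adjusted p = 0.0425), complex IV 2 of 15, cox4i2 (-1.38, adjusted p = 0.0077) and cox6b2 (-0.99, adjusted p = 0.0400), and complex V 0 of 9.

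Of 33 assembly factors, 3 had positive and 4 negative interactions that passed at 0.02 mg/L, against 14.3% of all genes, the positive ones being cox15 (2.69, adjusted p = 0.0053), cox18 (2.45, adjusted p = 0.0035) and atpaf2 (1.93, adjusted p = 0.0177). The fusion and quality control list of 21 genes had 2 positive calls, afg3l2 (1.87, adjusted p = 0.0056) and mfn1b (0.93, adjusted p = 0.0482), and 1 negative, prkn (-1.42, adjusted p = 0.0091). List medians lay between -0.56 for complex I and 0.03 for the fusion and quality control list, against -1.19 over the mitochondrial members and -0.10 over all genes.

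In the control lineage at 0.02 mg/L, where 12.9% of all genes passed, 7 of 33 assembly factors rose and 1 fell, among them nubpl (0.86, limma, adjusted p = 0.0186) and cox18 (-1.06, adjusted p = 0.0402). Of 13 biogenesis regulators, sirt3 (0.95, adjusted p = 0.0224) and pprc1 (0.76, adjusted p = 0.0412) rose and ppargc1b, a coactivator of mitochondrial gene programmes, fell (-1.17, adjusted p = 0.0239). A single upward call each was made for mrpl12 of 14 transcription genes (0.61), ptcd2 of 26 processing genes (0.70), ndufa10 of 33 complex I subunits (0.64) and prkn of 21 fusion and quality control genes (1.02), with limma adjusted p between 0.0147 and 0.0474. Of 15 complex IV subunits cox6b2 (0.80, adjusted p = 0.0284) and cox4i2 (0.70, adjusted p = 0.0392) rose, and complex III and complex V had 0 calls of 7 and 9.

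At 0.002 mg/L in the control lineage, where 4.59% of all genes passed, 5 calls were made over the 9 lists. Those upward were fastkd2, which acts on mitochondrial RNA (0.98, limma, adjusted p = 0.0408), nubpl (0.81, adjusted p = 0.0486), cox4i2 (0.92, adjusted p = 0.0393) and the mitophagy receptor fundc1 (0.59, adjusted p = 0.0472), and the one downward was cox18 (-1.67, adjusted p = 0.0291). No gene of the 9 lists passed in the BPA lineage at either concentration against none, where 0% of all genes passed at 0.002 mg/L and 0.411% at 0.02 mg/L.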

How the data were processed

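RNA was sequenced from medaka testis in 18 libraries. Per the submitters' processing notes, fastp 0.23.2, STAR 2.7.7a and DESeq2 1.34.0 were used, and no source used here names a genome build, an annotation, a read counter or a strand setting. The signal values deposited by the authors cover 22941 genes, 14992 of them named, and are counts scaled by DESeq2 size factors: every value (100%) lay within 0.01 of a whole multiple of its library's step, from which whole reads were recovered.

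The members and gene lists were chosen with earlier results of these data known. limma 3.58.1 (R 4.3.3; trend and robust options) was run on log2(value + 1) of the 18725 genes whose mean reached 10, all 10 members among them, with 1 mean for each of 6 groups. It made 12 comparisons, two-sided, adjusted by Benjamini-Hochberg over all genes of a comparison with a threshold of 0.05. The control lineage library at 0.002 mg/L labelled replicate 2 was left out, which leaves 17. The labels call the replicates biological and say no more, so p-values measure the spread between these libraries.

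Alternatives were all 18 libraries, no filter, a pseudocount of 5, scaling by TMM, a fit of only the groups compared, a fit with the replicate number as a term, edgeR 4.0.16 and DESeq2 1.42.0 on recovered reads, 1 library left out, and other denominators of the summed share. The share over 18 libraries was added after seeing the data. Scripts were tested on simulated data. In each list up to 4 genes that passed are named by size, or up to 2 with the smallest p where none did. RefSeq gene lengths served for levels per kilobase. A gene that the rule for likeness would name is not reported here.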

Additional observations from a re-analysis of the deposited data

Results flagged for a closer look

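In the main fit of 17 libraries, the effect of 0.02 mg/L PFOS on ND6 differed between the lineages by the test of the difference itself. The interaction, BPA lineage minus control lineage, was -1.96 on the log2 scale (limma, adjusted p = 0.0230). Of the 10 members only ND6 passed, a count near the 14.3% of all genes tested that did. Neither lineage passed on its own (limma, adjusted p = 0.196 in the BPA lineage and 0.0777 in the control lineage). The interaction did not pass with all 18 libraries (limma, adjusted p = 0.190), nor in several fits with 1 library left out. ND6 stood at 5530, 3632 and 3663 normalized reads with PFOS and 6876, 13251 and 5702 without it in the BPA lineage, and at 9905, 3539 and 7675 with PFOS and 2495, 3256 and 3975 without it in the control lineage. All 3 exposed libraries of the BPA lineage lay below its unexposed range, as for 10.3% of all genes tested. In the control lineage the exposed libraries other than replicate 2 lay above the unexposed range.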

How the results depend on the processing

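Counts of members passing in alternative fits, here and above, stand without the share of all genes passing in the same fit. They are therefore no result about the members. In the main fits that share was 10.4% between the lineages without PFOS and 12.9% at 0.02 mg/L in the control lineage. It was 14.3% in the interaction at 0.02 mg/L and 0.903% in that at 0.002 mg/L. Without PFOS, 1 member passed between BPA and control lineage. With 18 libraries 0 passed, with the replicate block 0, with edgeR 2 and with DESeq2 3, and leaving out 1 library gave 0 to 5. In the interaction at 0.02 mg/L, 1 member passed; 0 passed with 18 libraries, 2 with edgeR and 6 with DESeq2, and leaving out 1 library gave 0 to 7. In the interaction at 0.002 mg/L, 0 passed, against 1 with the compared groups alone and 1 with DESeq2, and 0 to 1 with 1 library left out. For 0.02 mg/L in the control lineage, 0 passed, against 4 with DESeq2 and 0 to 6 with 1 library left out. Over 25 alternatives the ND6 difference between the lineages without PFOS ran from 0.98 to 1.58 and its interaction at 0.02 mg/L from -2.39 to -1.60, with no change of sign. With all 18 libraries both ND6 estimates were unchanged, at 1.34 and -1.96, as the added library belongs to neither comparison. The spread is estimated over all groups together, so that library enters it. The causes of the other changes were not tested.

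The sign of a single member turned in 39 cases, none of which had passed. With 18 libraries, 0.002 mg/L against none in the control lineage gave -0.64 for ND1, -0.36 for ND2, -0.24 for ND4, -0.47 for COX1, -0.060 for COX2, -0.37 for COX3 and -0.20 for ATP6. ND1 was there -0.014 with TMM, -0.064 with the replicate block, -0.060 with edgeR and -0.087 with DESeq2. The interaction at 0.002 mg/L was 0.42 for ND5 and 0.091 for COX1 with 18 libraries, and that of ND5 at 0.02 mg/L was 0.063 with TMM. With 1 library left out, 0.002 mg/L in the control lineage ran from -0.14 to 0.21 for ND1, -0.21 to 0.10 for ND5 and -0.014 to 0.51 for ATP6; 0.02 mg/L ran from -0.065 to 0.64 for ND1 and -0.41 to 0.20 for ND5. In the BPA lineage, 0.002 mg/L ran from -0.87 to 0.061 for ND5 and -0.80 to 0.022 for COX1, and 0.02 mg/L from -0.50 to 0.43 for ND5, -0.54 to 0.29 for COX1 and -0.73 to 0.060 for COX3. ND5 ran from -0.24 to 0.69 between the lineages without PFOS, from -0.84 to 0.092 in the interaction at 0.002 mg/L and from -0.46 to 0.47 in that at 0.02 mg/L.

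For deviations from group means, libraries with the same replicate number had a median r of -0.024 (from -0.203 to 0.309 over 40 pairs). Those with different numbers had a median of 0.025 (from -0.251 to 0.193 over 80 pairs). Such correlations cannot exclude a shared batch, and the labels do not say whether the numbers pair the samples. With the replicate number as a term, ND6 between the lineages without PFOS had an adjusted p of 0.0534 (limma). The number of libraries, 3 a group and 2 in the control lineage at 0.002 mg/L, limits the precision of these differences. Differences in the summed share between groups moved by less than the pooled SD of replicates (0.936 percentage points) under the other denominators, with 18 libraries and with 1 library left out, yet several moved by over 1.5 times when 1 library was left out. Without PFOS the difference between the lineages ran from 0.836 to 2.50 percentage points, that of 0.02 mg/L in the BPA lineage from -1.89 to -0.231 and that of 0.002 mg/L in the control lineage from 0.0895 to 0.832, or -0.380 with 18 libraries. Without the 1% most abundant other genes in the denominator, the group means were 5.07% in the unexposed BPA lineage, in place of 4.10%, and 2.99% in the unexposed control lineage, in place of 2.45%.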

Other observations

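ND3, ND4L and ATP8, the short mitochondrial protein genes outside the 10 members, together took 0.0184 to 0.0604% of reads in the 17 libraries. ND3 is 349, ND4L 297 and ATP8 168 bases long in RefSeq. ND4L overlaps the member ND4 by 7 bases and ATP8 overlaps the member ATP6 by 10 bases. How the authors counted reads over such overlaps is not given, so these rows are not shown to be levels of separate mRNAs. Without PFOS their log2 differences between BPA and control lineage were 0.53, -0.24 and -0.94, and none passed (limma, adjusted p = 0.287, 0.828 and 0.285). At 0.02 mg/L in the control lineage they were -0.15, -0.98 and -0.77. ATP8 stood at 20.3 to 168 normalized reads, against 24099 to 96051 for ATP6. Pearson's r with the summed members over the 17 libraries was 0.63 for ND3, 0.42 for ND4L and 0.22 for ATP8, given as a description.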
